A study of Mus musculus with 16 samples.

Results

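The 10 genes described here encode cell adhesion molecules: 7 cadherins (Cdh1, Cdh2, Cdh3, Cdh4, Cdh6, Cdh11 and Cdh16) and 3 members of the immunoglobulin superfamily (Ncam1, Chl1 and Alcam). They were chosen by name, with earlier results of these data known. All 10 were found among the 18193 genes with a probe set of a single symbol on the array. They are covered by 29 probe sets, and each gene is described through the probe set with the highest mean log2 signal over all arrays. Transcript levels in mouse kidney rudiments at E11.5 were measured on 16 arrays in 4 groups. Wild-type ureteric bud (UB; 4 arrays, each from 3 to 9 buds) and wild-type metanephric mesenchyme (hand-dissected MM; 3 arrays, each from an individual mesenchyme) were separated by hand after collagenase. Hoxa11, Hoxd11 double null mesenchyme (null capture; 5 arrays, from urogenital ridge sections) and wild-type mesenchyme (wild-type capture; 4 arrays, each pooled from 3 to 4 mesenchymes in kidney rudiment sections) were taken by laser capture, which lifts chosen areas off a section. Source piece thus differed together with genotype, and pooling with tissue and with isolation method. Pooling of the null captures is not stated in the sources used here, so whether it differed with genotype is not known. The sources used here give neither strain nor sex.

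Cadherins are calcium-dependent adhesion receptors that bind mostly to the same cadherin on the neighbouring cell. The classical ones, of type I (Cdh1 to Cdh4 here) and type II (Cdh6 and Cdh11), are tied to the actin cytoskeleton by catenins. Immunoglobulin adhesion molecules bind without calcium. When kidney mesenchyme condenses and turns into nephron epithelium, its cells change their cadherins, whereas the bud is an epithelium from the start.

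Values are MAS5 signals, a background-corrected brightness per probe set on a linear scale. Median signals of the arrays ran from 112.7 to 209.2. They were 112.7 to 128.9 in null replicates 2 to 5, 209.2 in null replicate 1 and 162.7 to 182.3 in wild-type captures. A signal below the median of its own array is called dim here, since detection calls were not used here. The Hoxa11 probe set, which checks 1 of the targeted genes, gave 91.8 to 196.6 in null captures and 525.5 to 839.6 in wild-type captures (-2.23 ± 0.34 SE; limma adjusted p = 0.0114). The Hoxd11 probe set, at 192.0 to 482.2 and 317.8 to 586.8, did not separate them (-0.35 ± 0.35 SE; limma adjusted p = 0.635), and whether it lies in the deleted part is not known here. Null replicate 1 stood apart from its group, with a median correlation of 0.896 to the other null captures, where the remaining 4 reached 0.928 to 0.933. The 9 measured bud markers, among them Ret and Calb1, summed to signals of 164600 to 208600 in UB, 12180 to 47150 in null captures, 10100 to 59990 in wild-type captures and 3092 to 3340 in hand-dissected MM. Of these markers 2, Gata3 and Krt19, were dim on all arrays of hand-dissected MM, and 1, Krt19, on all wild-type captures. The 8 nephron progenitor markers, among them Six2 and Eya1, summed to 1349 to 2031 in UB, 16020 to 83340 in null captures, 34470 to 58950 in wild-type captures and 65980 to 82580 in hand-dissected MM. Of these markers Cited1 and Osr1 were dim on all arrays of hand-dissected MM, and Osr1 and Wt1 on all UB arrays. Between these tissues 7 were tested, and 6 were called lower and 1 higher in UB by limma. In whole tissue pieces such as these, fewer cells of a type and less RNA per cell cannot be told apart.

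**Figure D1:**
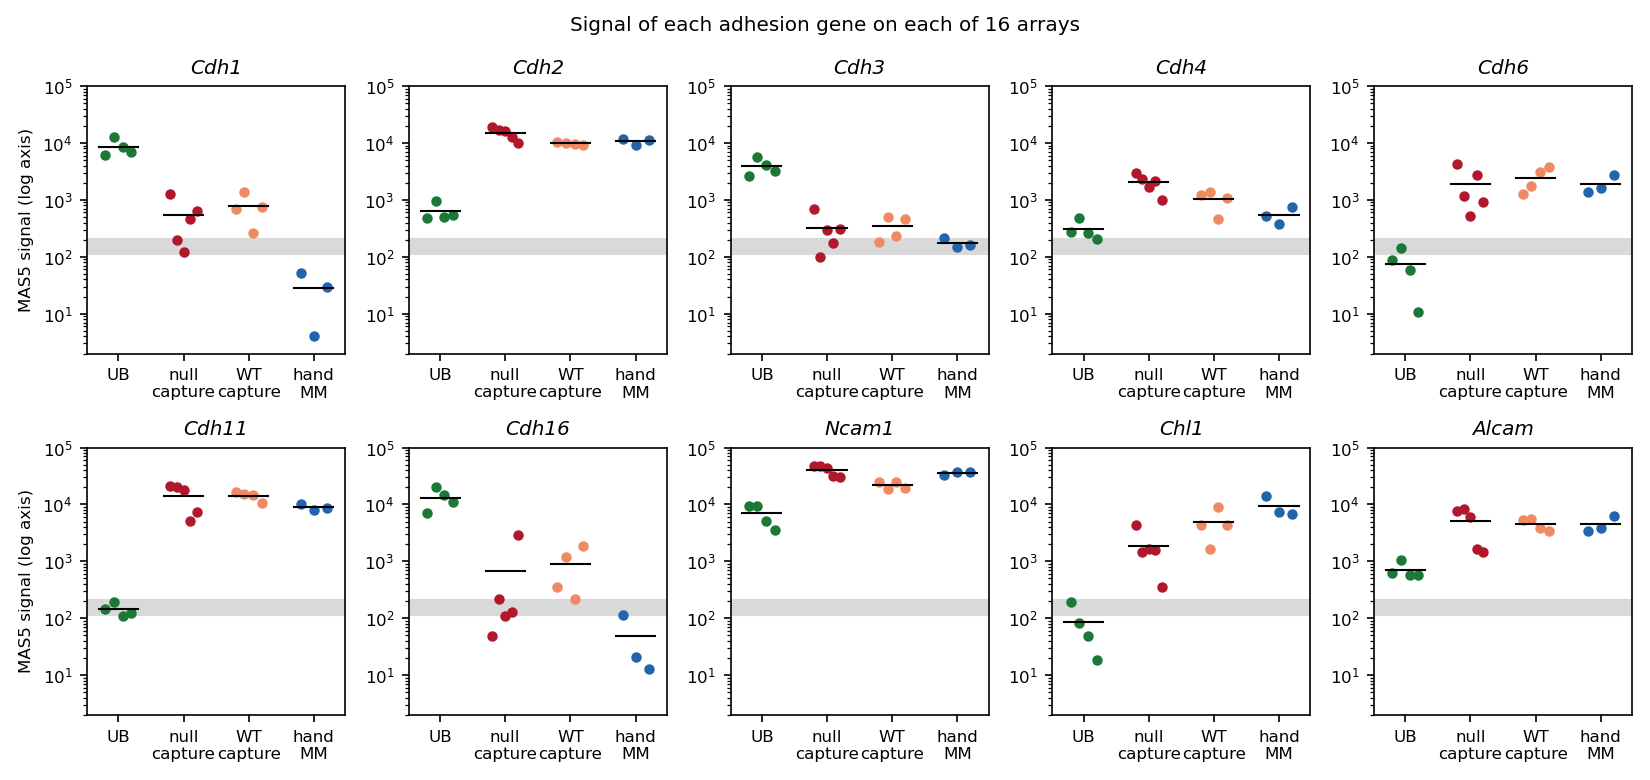
MAS5 signal (log axis) of the 10 adhesion genes on each array, with 1 point per array and a black bar at the group mean; UB is bud, hand MM is hand-dissected mesenchyme, WT is wild type, and the grey band spans the medians of the 16 arrays. Cdh1, Cdh3 and Cdh16 were highest in UB, and the other 7 genes had their lowest mean there.

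The comparison of UB with hand-dissected MM asks which genes mark either structure. Of the 10 genes, 3 were higher in UB (Cdh1, Cdh3 and Cdh16) and 6 were lower (Cdh2, Cdh6, Cdh11, Ncam1, Chl1 and Alcam), and Cdh4 did not pass the test. The test was limma with Benjamini-Hochberg adjustment over all 23851 probe sets tested and a threshold of 0.05, which called 23.9% of them in all: 12.4% were higher, and 2749 probe sets were lower. The arrays of the 2 tissues did not overlap for 9 of the 10 genes, against 32.1% of all tested probe sets (16.2% higher and 15.9% lower). The median difference of the 10 genes was -2.53 on the log2 scale, against 0.02 for all tested probe sets, and the median absolute difference was 4.20 against 0.41. The genes were chosen with earlier results of these data known, so these shares describe them and are no test of the list. All 10 members passed the filter on low signals in each comparison.

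Cdh1 encodes E-cadherin, the cadherin of most epithelia. Its signal was 6173, 12869, 8519 and 6915 in the 4 UB arrays and 52.9, 4.1 and 28.9 in the 3 hand-dissected MM arrays. All UB arrays were bright and all mesenchyme arrays dim, so the size of the difference depends on the offset added before the logarithm. The difference was 7.07 ± 0.32 (SE) on the log2 scale (limma adjusted p = 4.08e-08), and ran from 5.76 to 8.11 over the alternative settings. Cdh16, the kidney-specific Ksp-cadherin, which lacks the catenin-binding tail of the classical cadherins, gave 7003, 20206, 14591 and 10869 in UB and 112.3, 21.0 and 12.8 in hand-dissected MM. It was likewise dim on all 3 mesenchyme arrays, and differed by 7.36 ± 0.42 (SE), with 6.17 to 8.20 over the alternatives. Cdh3, P-cadherin, a close relative of E-cadherin found in many basal and embryonic epithelia, gave 2649, 5585, 4078 and 3256 in UB and 214.0, 147.0 and 160.1 in hand-dissected MM. Its mesenchyme arrays lay near the array median, and the difference was 4.18 ± 0.27 (SE; limma adjusted p = 5.71e-07). The other Cdh3 probe set moved the same way (2.75 ± 0.25 SE).

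Among the cadherins lower in UB, Cdh11, the mesenchymal OB-cadherin, had the largest difference of log2 values. It gave 146.0, 195.1, 109.7 and 126.0 in UB and 10364, 8073 and 8754 in hand-dissected MM, a difference of -5.67 ± 0.23 (SE; limma adjusted p = 1.92e-08). Of the UB arrays 2 were dim for it, while every mesenchyme array was far above its median. Cdh2, N-cadherin, which is typical of mesenchyme and nerve, gave 484.5, 964.2, 509.6 and 541.6 in UB and 11901, 9180 and 11279 in hand-dissected MM (-4.08 ± 0.26 SE). Unlike Cdh11 it was above the array median on all 4 UB arrays. Cdh6, a type II cadherin known from early nephron tubules, gave 87.8, 145.5, 57.5 and 10.7 in UB and 1361, 1590 and 2749 in hand-dissected MM (-4.21 ± 0.42 SE; limma adjusted p = 1.82e-05). It was dim on 3 of the 4 UB arrays. For Cdh2 and Cdh11 the second probe set was also called lower, at -3.80 ± 0.37 and -4.62 ± 0.26 (SE), and for Cdh6 the second one was too dim to be tested.

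Cdh4, R-cadherin, was the exception. Its signal of 272.6, 475.5, 264.4 and 201.3 in UB overlapped the 511.7, 380.7 and 753.6 of hand-dissected MM, and the difference of -0.79 ± 0.31 (SE) missed the threshold (limma adjusted p = 0.0878). It passed without UB replicate 2, at -1.01 (limma adjusted p = 0.0372), and with arrays weighted by quality (adjusted p = 0.00753).

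The 3 immunoglobulin members were all lower in UB, to very different extents. Chl1, the close homologue of the neural adhesion molecule L1, gave 192.3, 81.5, 49.6 and 18.7 in UB and 14329, 7439 and 6822 in hand-dissected MM. It was dim on 3 of 4 UB arrays and differed by -6.41 ± 0.43 (SE; limma adjusted p = 7.45e-07), with -6.96 to -4.61 over the alternatives. Ncam1, which encodes a neural cell adhesion molecule that is also made by kidney mesenchyme, gave 9538, 9555, 5208 and 3562 in UB and 32414, 36788 and 37407 in hand-dissected MM. Its UB arrays were thus bright, and the difference was smaller, at -2.46 ± 0.30 (SE; limma adjusted p = 9.99e-05). Alcam, a receptor for the lymphocyte protein CD6 that also binds itself, gave 625.1, 1041.4, 587.7 and 579.1 in UB and 3370, 3861 and 6378 in hand-dissected MM (-2.61 ± 0.29 SE). Of the other probe sets of these 3 genes, 7 were tested and 6 were called lower too, and the remaining probe set, for Ncam1, differed by -0.80 (limma adjusted p = 0.0904). An estimate of RNA integrity moved with the tissues: the ratio of 3′ to 5′ Gapdh signal was 6.53 to 12.23 in UB and 22.09 to 69.33 in hand-dissected MM, while that of Actb, at 10.92 to 16.25 and 11.08 to 17.87, overlapped. In wild-type captures the Gapdh ratio was 14.27 to 22.86 and the Actb ratio 14.79 to 20.85. In null captures they were 18.4 to 26.27 and 17.54 to 27.6. The part of RNA integrity in the differences of any comparison was not tested.

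**Figure D2:**
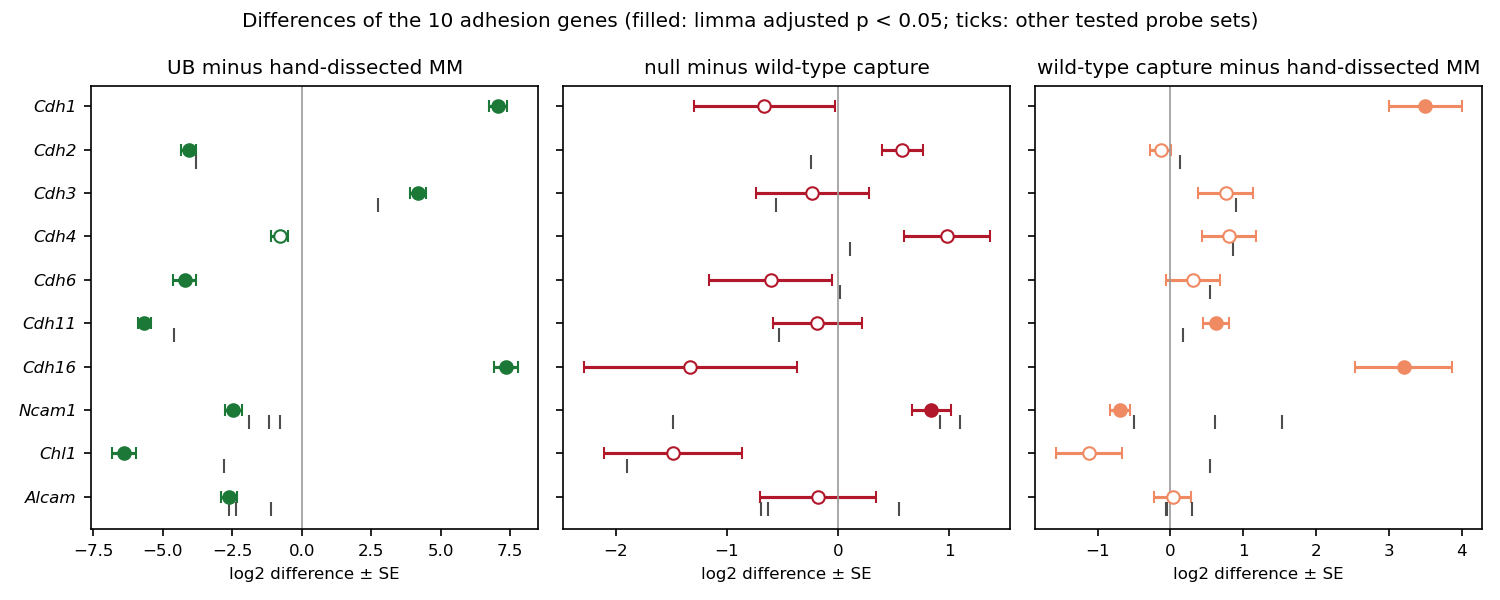
Differences on the log2 scale with SE for the 10 genes in the 3 comparisons, each axis with its own range; filled points passed the threshold (limma adjusted p under 0.05), and ticks under a point are other tested probe sets of that gene. In the UB comparison 9 genes were called and the ticks lie on the side of their point, whereas for Ncam1 ticks fall on both sides of 0 in the other comparisons.

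Promoter sequences of Cdh6, Chl1 and Alcam, which were lower in UB together, are shown because E-boxes are where cadherin repressors of the Snail and Zeb families bind. These are the 3 of 10 genes found in the RefSeq promoter table (build GRCm38.p6). Each line gives the 250 bases before the annotated start, 5′ to 3′ on the gene's strand, with E-boxes (CANNTG, which reads as the same pattern on both strands) in capitals.
Cdh6, chr15:13173676-13173925, minus strand: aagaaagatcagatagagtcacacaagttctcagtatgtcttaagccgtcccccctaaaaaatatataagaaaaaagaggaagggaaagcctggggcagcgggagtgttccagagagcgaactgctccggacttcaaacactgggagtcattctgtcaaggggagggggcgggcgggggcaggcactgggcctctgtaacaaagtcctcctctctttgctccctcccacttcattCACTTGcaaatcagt
Chl1, chr6:103510626-103510875, plus strand: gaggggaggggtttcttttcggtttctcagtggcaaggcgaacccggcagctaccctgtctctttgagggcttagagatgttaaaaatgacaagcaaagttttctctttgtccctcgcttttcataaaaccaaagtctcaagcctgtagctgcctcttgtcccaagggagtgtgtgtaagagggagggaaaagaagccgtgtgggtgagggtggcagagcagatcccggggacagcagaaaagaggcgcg
Alcam, chr16:52453082-52453331, minus strand: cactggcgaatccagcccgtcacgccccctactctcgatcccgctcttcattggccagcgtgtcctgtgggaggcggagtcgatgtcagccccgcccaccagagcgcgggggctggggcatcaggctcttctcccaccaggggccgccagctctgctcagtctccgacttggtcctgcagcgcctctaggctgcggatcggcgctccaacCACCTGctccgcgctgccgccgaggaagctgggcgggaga
Cdh6 held 1 E-box, CACTTG, starting 15 bases before the start, and Alcam 1, CACCTG, 40 bases before it. Chl1 held none in this window. Of 32851 mouse promoter windows of the same length, 66.2% held an E-box, and 17.2% held CAGGTG or CACCTG, the form preferred by those repressors, found here in Alcam. These matches are letters in a window, not measured sites.

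Genes listed as cadherin repressors, epithelial factors or enzymes that add polysialic acid to NCAM differed between the tissues. They are called regulators here for short, and their action on the adhesion genes was not measured. Of the 15 listed, 13 were tested, and 5 were higher and 8 lower in UB, with a median of -1.03 against 0.02 for all probe sets. Esrp1, an epithelial splicing factor, averaged 25390 in UB and 25.2, a dim signal, in hand-dissected MM (8.72 ± 0.24 SE, with 7.38 to 9.72 over the alternatives), and Grhl2, a transcription factor that activates Cdh1, 6200 and 165.4 (4.94 ± 0.22 SE). The repressors Snai2 and Zeb1 were lower in UB, at 297.6 and 756.1, against 15150 and 21690 in hand-dissected MM (-5.76 ± 0.42 and -4.89 ± 0.35 SE). Cdh6, Chl1 and Alcam, whose promoters are shown above, were lower in UB too, so they moved in the same direction as Snai2 and Zeb1. The part of these repressors in the levels of the 10 genes was not tested.

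Other adhesion genes split between the tissues. Of 20 tested cadherins and protocadherins outside the 10 genes, 4 were higher and 8 lower in UB, with a median of -0.18. The atypical cadherin Fat4 (-6.54 ± 0.29 SE) and the protocadherin Pcdh8 (-5.52 ± 0.27 SE) were lower, and the protocadherins Pcdh19 (3.17 ± 0.46 SE) and Pcdh7 (2.31 ± 0.28 SE) higher. Of 15 tested catenins and cadherin partners, 7 were higher and 0 lower by limma (8 and 0 at an unadjusted p under 0.05), with a median of 0.73. They included Ctnnd2, a delta-catenin, at 15440 in UB and 1058 in hand-dissected MM (3.79 ± 0.21 SE), the nectins Nectin3 (1.66 ± 0.21 SE) and Nectin2 (1.34 ± 0.30 SE), and Ctnnal1, an alpha-catenin relative (1.35 ± 0.32 SE). Of 21 tested immunoglobulin adhesion genes outside the 10, 4 were higher and 7 lower, with a median of -0.13. L1cam, the family's name-giver, averaged 7804 in UB and 281.3 in hand-dissected MM (4.56 ± 0.29 SE), in the direction opposite to its homologue Chl1. Vcam1, a ligand of integrins, was lower in UB, at 4.25 in UB and 2243 in hand-dissected MM; its UB level is far below the offset, and the difference ran from -7.43 to -4.07 over the alternatives. Also lower were Cntn1, a contactin (-2.17 ± 0.27 SE), and Icam1 (-1.99 ± 0.51 SE). Icam1 missed the threshold without UB replicate 2 or mesenchyme replicate 7 (limma adjusted p = 0.0501 and 0.0704).

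The comparison of null with wild-type captures asks which genes depend on Hoxa11 and Hoxd11. Of the 10 adhesion genes, 1, Ncam1, was called higher in the null captures and 0 lower, where limma called 1.76% of the 23387 probe sets tested, 0.59% higher and 1.17% lower. Ncam1 was also the 1 gene of the 10 whose arrays did not overlap, against 8.82% of all tested probe sets (2.68% higher and 6.14% lower). The median of the 10 genes was -0.21, against -0.15 for all probe sets, and their median absolute difference 0.64 against 0.36. At an unadjusted p under 0.05, 3 of the 10 were higher (Cdh2, Cdh4 and Ncam1) and 1 lower (Chl1), where 18.7% of all probe sets passed, 6.12% higher and 12.6% lower.

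Ncam1 gave 47797, 46395, 43318, 31641 and 30282 in null replicates 1 to 5 and 24807, 18766, 25184 and 19565 in wild-type captures 1 to 4. Every null capture lay above every wild-type capture, and the difference was 0.84 ± 0.17 (SE; limma adjusted p = 0.0399). The call was not stable: in 6 of 9 fits that left out 1 array it missed the threshold, namely without any of the 4 wild-type captures and without null replicate 2 or 3 (limma adjusted p = 0.082 to 0.136). The other 3 tested probe sets of Ncam1 did not pass, and they went different ways. The second brightest gave 6287, 1430, 876.4, 489.2 and 563.7 in null captures and 2814, 4041, 3093 and 3623 in wild-type captures (-1.48 ± 0.61 SE; limma adjusted p = 0.219). On that probe set 4 of 5 null captures lay below all wild-type captures, and null replicate 1 above them. The remaining pair differed by 0.92 and 1.09 (limma adjusted p = 0.334 and 0.56). The annotation used here does not say which Ncam1 transcripts each probe set detects.

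**Figure D3:**
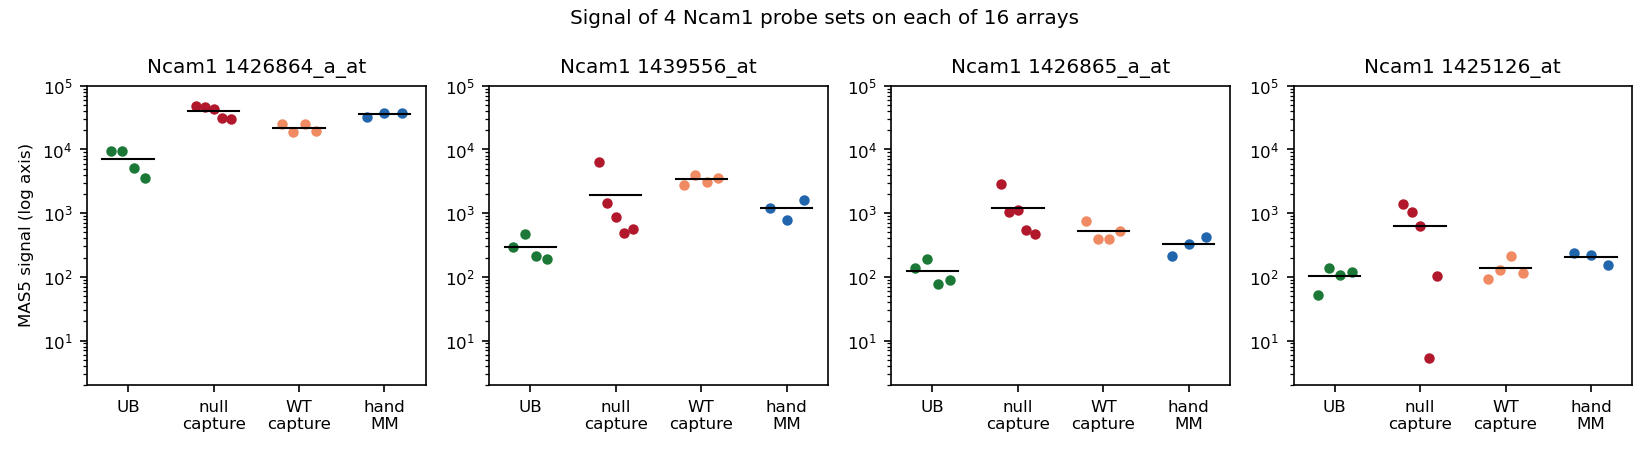
MAS5 signal (log axis) of the 4 tested Ncam1 probe sets on each array, with 1 point per array and a black bar at the group mean; UB is bud, hand MM is hand-dissected mesenchyme and WT is wild type. The representative probe set at the left is above the wild-type captures on all 5 null captures, whereas the second has 4 of 5 null captures below them.

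Markers of other cell types also differed between or among the captures. Renal vesicle markers separated the genotypes as Ncam1 did: the 8 genes summed to 41850 to 60140 in null captures and 17250 to 34450 in wild-type captures. This list is not particular to vesicles here, since it summed to 62270 to 72720 in UB and 17380 to 23620 in hand-dissected MM. Between those tissues 5 of the 8 were called higher in UB and 3 lower by limma. In the captures none of the 8 was dim on all arrays of either genotype. The Notch pathway genes Dll1 and Hey1, 2 of the 8, were called higher in null captures by limma, with 0 lower and a median of 0.72. The 5 macrophage markers summed to 948.4 to 12910 in null captures and 10420 to 19180 in wild-type captures. Of these 1, Tyrobp, was called lower by limma and 0 higher, and all 5 were lower at an unadjusted p under 0.05. Neural markers varied widely among the null captures. The 10 measured neuronal and neural crest markers summed to 72130, 31600, 17330, 74010 and 8221 in null replicates 1 to 5 and to 9726, 11290, 10100 and 25860 in wild-type captures 1 to 4. In wild-type captures 2 of the 10, Sox10 and Ina, were dim on every array, and in null captures 0. Of the 9 tested, 1, the neurofilament-related Ina, was called higher and 0 lower by limma, with a median of 1.28; at an unadjusted p under 0.05, 4 were higher and 0 lower. Null replicate 4 had the highest neural sum and, for Ncam1, a signal below those of null replicates 1, 2 and 3. Null replicate 1, with a neural sum of 72130, had the highest Ncam1 signal, 47797. Null replicate 5 had both the lowest neural sum, 8221, and the lowest Ncam1 signal of the null captures, 30282. The part of these 3 marker lists in the Ncam1 result was not tested.

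The other 9 genes did not pass. Cdh2 gave 18675, 17047, 16416, 12787 and 9878 in null captures and 10253, 10018, 9504 and 9357 in wild-type captures (0.58 ± 0.19 SE; limma adjusted p = 0.136). In 4 of the 5 null captures it lay above all wild-type captures. With arrays weighted by quality it passed (limma adjusted p = 0.0467), but its second probe set differed by -0.24 ± 0.39 (SE). Cdh4 gave 2999, 2326, 1681, 2142 and 1004 in null captures and 1202, 1352, 452.4 and 1096 in wild-type captures (0.98 ± 0.38 SE; limma adjusted p = 0.203). Again 4 of 5 null captures were above all wild-type captures. Chl1 had the most negative difference of the 10, with 4320, 1479, 1652, 1608 and 350.6 in null captures and 4286, 1674, 9073 and 4358 in wild-type captures (-1.49 ± 0.62 SE; limma adjusted p = 0.228). Its second probe set differed by -1.90 ± 0.59 (SE; limma adjusted p = 0.12), and without null replicate 1 the representative differed by -1.88 (limma adjusted p = 0.0678).

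Several genes split the null captures among themselves. Cdh11 gave 21344, 19887 and 17646 in null replicates 1 to 3 but 5035 and 7263 in replicates 4 and 5, against 16583, 14959, 14424 and 10546 in wild-type captures. Alcam gave 7713, 8459 and 5981 in null replicates 1 to 3 and 1638 and 1453 in replicates 4 and 5, against 5385, 5462, 3921 and 3418 in wild-type captures. For both genes the first 3 null captures were above every wild-type capture and the other 2 below every one, so that the mean difference was near 0 (-0.19 ± 0.40 and -0.18 ± 0.52 SE). The second Cdh11 probe set showed this split only in part: it gave 4593, 2214, 2322, 716.8 and 397.1 in null captures and 2765, 2677, 2370 and 1226 in wild-type captures. There null replicates 4 and 5 were again below every wild-type capture, but replicates 2 and 3 were not above them. Of the other 3 tested Alcam probe sets, 2 had the same split, and the last, at 0.55 ± 0.59 (SE), had replicate 4 within the wild-type range. These 2 null captures also differed in markers of other tissues. The 6 muscle markers summed to 83350 in null replicate 4, against 1693 to 10330 in the other null captures. The 6 gonad, adrenal and coelomic markers summed to 16740 in null replicate 5, against 321.8 to 876.9 in the others. Of these 6 markers Msln was dim on all null captures, and only 1 passed the filter on low signals in this comparison. Nephron progenitor markers summed to 16020 and 39800 in null replicates 4 and 5, and to 44880, 81370 and 83340 in replicates 1 to 3. The part of these tissues in the levels of Cdh11 and Alcam was not tested.

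The epithelial cadherins showed no called difference between null and wild-type captures, with wide errors. Cdh1 gave 1293, 198.7, 123.6, 458.8 and 638.5 in null captures and 692.6, 1382, 260.5 and 737.7 in wild-type captures (-0.66 ± 0.63 SE; limma adjusted p = 0.612). Cdh16 gave 48.0, 221.9, 110.6, 129.3 and 2856 in null captures and 348.2, 1187, 214.9 and 1863 in wild-type captures (-1.33 ± 0.96 SE; limma adjusted p = 0.487). Its highest null capture, replicate 5, is also the one with the highest bud marker sum, 47150. Without that replicate the difference was -2.18 (limma adjusted p = 0.126). Cdh3 and Cdh6 differed by -0.23 ± 0.51 and -0.61 ± 0.56 (SE; limma adjusted p = 0.84 and 0.595), and the second Cdh6 probe set by 0.02 ± 0.55 (SE).

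Of the adhesion genes outside the 10, few were called in the null captures. Cdh9, a type II cadherin, was lower, at a mean of 47.8 in null captures and 343.4 in wild-type captures (-2.26 ± 0.50 SE; limma adjusted p = 0.0487), the 1 call among 21 tested cadherins and protocadherins. Jam3, a junctional adhesion molecule, was higher, at 4980 in null captures and 2813 in wild-type captures (0.82 ± 0.17 SE; limma adjusted p = 0.0424), the 1 call among 21 tested immunoglobulin genes. Both calls were lost when any 1 of the wild-type captures was left out. Of 13 tested catenins and partners, 0 were called by limma, and 0 passed an unadjusted p of 0.05. Of 13 tested regulators 0 were called, and 1 was higher and 2 lower at that unadjusted p.

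The third comparison sets wild-type captures against hand-dissected wild-type MM. Isolation method and pooling differ together here, and bud markers differ too, as given below. Of the 10 genes, 3 were higher in the captures (Cdh1, Cdh16 and Cdh11) and 1, Ncam1, was lower, where limma called 24.8% of 23612 tested probe sets, 16.3% higher and 8.51% lower. These 4 genes were also the ones whose arrays did not overlap, against 35.2% of all probe sets (21.9% higher and 13.3% lower). The median of the 10 was 0.47 and that of all probe sets 0.11. This comparison shares the hand-dissected arrays with the UB comparison and the wild-type captures with the null comparison.

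Cdh1 and Cdh16 had the largest differences. Cdh1, at 692.6, 1382, 260.5 and 737.7 in wild-type captures and 52.9, 4.1 and 28.9 in hand-dissected MM, differed by 3.50 ± 0.50 (SE; limma adjusted p = 0.0012). Cdh16, at 348.2, 1187, 214.9 and 1863 in the captures and 112.3, 21.0 and 12.8 in hand-dissected MM, differed by 3.20 ± 0.67 (SE; limma adjusted p = 0.00645). For both genes all captures lay above their array medians and all hand-dissected arrays below. Bud markers moved with them: 7 of 8 tested were higher in the captures and 0 lower by limma (8 and 0 at an unadjusted p under 0.05), with a median of 2.31. Their summed signal was 22260, 59990, 10100 and 42980 in wild-type captures 1 to 4, and 3179, 3340 and 3092 in the hand-dissected arrays. Over the 4 captures Cdh1 came in the same order as this sum, and Cdh16 also had its 2 higher captures where the sum was higher. Over the 5 null captures Cdh1 did not follow the sum: replicate 4 had the lowest sum and the third highest Cdh1 signal, and replicate 1, with the highest Cdh1 signal, had the third highest sum. Cdh3, the third bud cadherin, did not pass, at 0.76 ± 0.38 (SE; limma adjusted p = 0.167). The part of bud tissue in these levels was not tested.

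**Figure D4:**
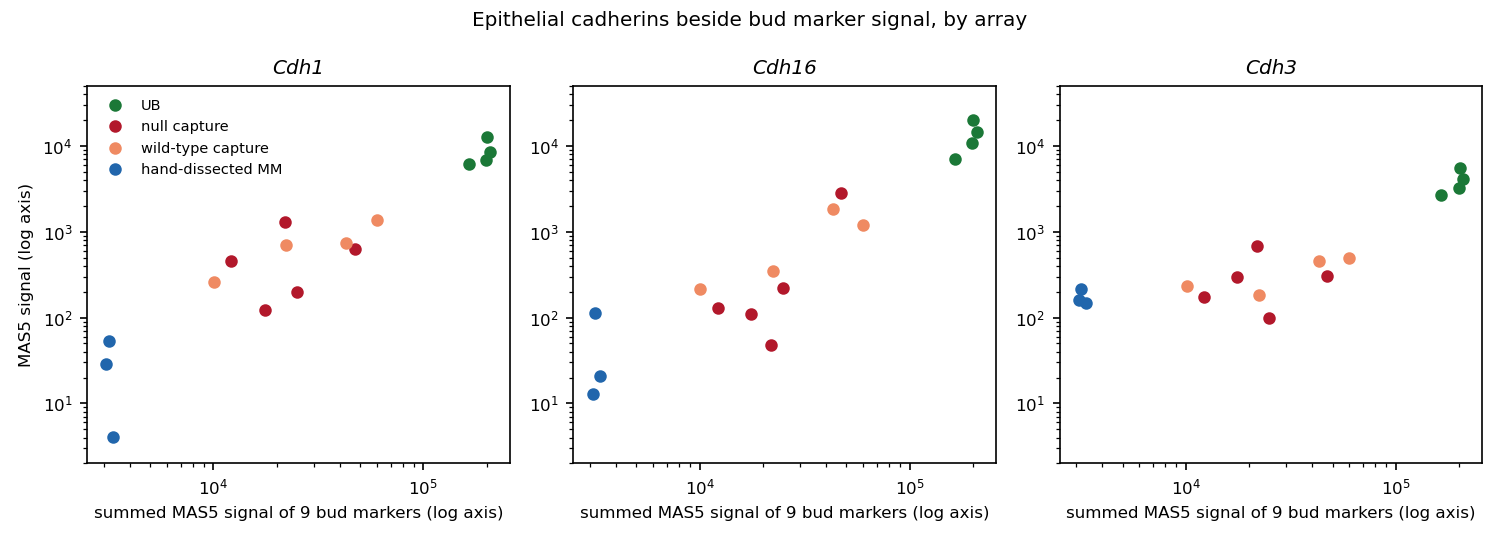
MAS5 signal of Cdh1, Cdh16 and Cdh3 (vertical, log axis) against the summed signal of 9 bud markers (horizontal, log axis), with 1 point per array, coloured by group. The captures lie between UB and hand-dissected MM on the horizontal axis, with sums of 10100 to 59990, and their Cdh1 signals of 123.6 to 1382 lie between those of the other groups.

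Cdh11 gave 16583, 14959, 14424 and 10546 in wild-type captures and 10364, 8073 and 8754 in hand-dissected MM (0.63 ± 0.17 SE; limma adjusted p = 0.0236). The nearest arrays of the groups were close, and the call was lost without capture 1 or 2 or without mesenchyme replicate 6 or 7 (limma adjusted p = 0.0579 to 0.0774). It was also lost after centring on array medians (0.43, limma adjusted p = 0.0831), and the second Cdh11 probe set differed by 0.17 ± 0.30 (SE). Ncam1 gave 24807, 18766, 25184 and 19565 in the captures and 32414, 36788 and 37407 in hand-dissected MM (-0.70 ± 0.13 SE; limma adjusted p = 0.00434). The second brightest Ncam1 probe set was called in the other direction, at 2814, 4041, 3093 and 3623 in the captures and 1202, 766.9 and 1582 in hand-dissected MM (1.54 ± 0.26 SE; limma adjusted p = 0.00245). Ncam1 thus has no single direction here. It was the 1 case over the 3 comparisons in which probe sets of a member were called in opposite directions.

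The other 6 genes did not pass. Cdh2 (-0.13 ± 0.14 SE), Alcam (0.03 ± 0.26 SE) and Cdh6 (0.31 ± 0.37 SE) differed by less than the spread between arrays. Cdh4 and Chl1, at 0.81 ± 0.38 and -1.12 ± 0.45 (SE; limma adjusted p = 0.139 and 0.092), both passed without capture 3 (limma adjusted p = 0.0176 and 0.0178). For Chl1, however, the second probe set went the other way, at 801.6, 182.9, 740.5 and 607.6 in the captures and 362.3, 321.9 and 343.1 in hand-dissected MM (0.54 ± 0.43 SE; limma adjusted p = 0.382). With the mean of its probe sets Chl1 differed by -0.29 (limma adjusted p = 0.647). The second Cdh2 probe set, at 0.13 ± 0.16 (SE), and 2 of 3 other Alcam probe sets, at -0.07 and -0.05, also differed in sign from the representative, none of them called.

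Among the pathway lists, Esrp1 was higher in the captures, at a mean of 3011 against 25.2 in hand-dissected MM (5.34 ± 0.52 SE), and Zeb1 lower, at 14090 against 21690 (-0.63 ± 0.17 SE). St8sia2, a polysialyltransferase acting on NCAM, was lower (-1.57 ± 0.36 SE) and Tcf3, an E-box factor, higher (1.28 ± 0.21 SE). In all 2 of 12 tested regulators were higher and 2 lower. Of 13 tested catenins and partners, Ctnnb1 was called higher (0.33 ± 0.11 SE), with -0.065 after quantile normalization, and Ctnnd1 (-1.14 ± 0.21 SE) and Pkp4 (-0.81 ± 0.19 SE) were called lower. Of 21 cadherins and protocadherins 0 were higher and 2 lower by limma (3 and 3 at an unadjusted p under 0.05), namely Celsr2 (-1.25 ± 0.25 SE) and Fat4 (-0.74 ± 0.22 SE). Of 20 immunoglobulin genes 4 were higher and 0 lower by limma (7 and 0 at an unadjusted p under 0.05), namely Thy1, Jam3, Igsf9 and Bsg, at 0.87 to 1.56. Over all tested probe sets, limma called 16.3% higher and 8.51% lower. Shares over all probe sets at an unadjusted p were not computed for this comparison. The calls of Fat4, Ctnnb1, Bsg, Igsf9 and Zeb1 were each lost without at least 1 of the arrays.

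Set in order of mean signal, Cdh1, Cdh3 and Cdh16 ran from UB over wild-type captures and null captures to hand-dissected MM. The arrays of wild-type and null captures overlapped for each of these genes. Those of null captures and hand-dissected MM overlapped for Cdh3 and Cdh16. Of the 30 pairs of groups next to each other in the order of a gene, 12 had arrays that did not overlap, against 11.6% of such pairs over the 13503 genes above the array median on at least 3 arrays. For 9 of the 10 genes UB stood apart from its neighbour in the order, Cdh4 being the exception, and UB stood apart from each neighbour for 13.8% of the 13503 genes. For Ncam1 the order was null captures, hand-dissected MM, wild-type captures and UB, at 39890 ± 8321, 35540 ± 2721, 22080 ± 3385 and 6966 ± 3055 (SD, n = 5, 3, 4 and 4). The upper pair overlapped and the lower steps did not. For Chl1 it was hand-dissected MM, wild-type captures, null captures and UB, at 9530 ± 4168, 4848 ± 3081, 1882 ± 1464 and 85.5 ± 75.7 (SD, n = 3, 4, 5 and 4), with overlap at the upper 2 steps and, on the second probe set, means of 583.1 in wild-type captures and 342.4 in hand-dissected MM.

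The genes most alike each member over the 16 arrays, by Pearson correlation of log2 signals among 13503 genes above the array median on at least 3 arrays, are given as a description. The arrays fall into groups, so that the correlations mainly carry the group differences. Cdh1 was most like Esrp1 and Spint1 (r = 0.971 and 0.965), Cdh16 like Cldn8 and Wfdc15b (0.975 and 0.965) and Cdh3 like Itpr3 and Ripk4 (0.973 and 0.961). Cdh11 was most like Shisa3 and Itga8 (0.991 each), Cdh2 like Tgfbi and Hoxc5 (0.984 and 0.983) and Cdh6 like Akap12 and Iffo1 (0.977 and 0.966). Chl1 was closest to Mex3b and Inpp4a (0.971 and 0.969), Alcam to Otulinl and Crym (0.962 and 0.959), Ncam1 to Ptprd and Fzd2 (0.959 and 0.950), and Cdh4 to Tmem35b and Ttc28 (0.962 and 0.938).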

How the data were processed

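Per the labels' protocols, each sample's RNA went through 2 rounds of amplification and onto 1 Affymetrix MOE430_v2 array. MAS5 is the software named in the submitters' processing notes, without a version, and the deposited intensity values are its signals on a linear scale. The deposited intensities were scaled by the authors to a mean of 1500 after removal of 2% at each tail, as read from the values. Such scaling assumes equal total expression, and amplification from the 3′ end can shift probe sets by their distance from it.

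Signals were converted to log2(signal + 36.3), the offset being the 25th percentile of the 45037 probe sets without controls. Fold changes of dim genes are understated on this scale. A probe set was kept if it exceeded its array's median on a number of arrays no lower than the size of the smaller group. The tests were those of limma 3.58.1 (R 4.3.3, intensity trend), with each comparison fitted to its own arrays, and p-values were adjusted by Benjamini-Hochberg over all kept probe sets. The script was tested on simulated data. Gene names came from the platform annotation. The members and gene lists were chosen with earlier results of these data known. Named genes are all members, the up to 4 called genes of largest difference in each pathway list, and the 2 genes most alike each member. The series text calls replicates separate embryos. In the captures replicate numbers 1 to 4 recur, but no label pairs them. Offset, filter, normalization, array weights, a joint fit, left-out arrays and the choice of probe set were varied. The precision is limited by 3 to 5 arrays per group. Figures were drawn with matplotlib 3.10.9.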

Additional observations from a re-analysis of the deposited data

Results flagged for a closer look

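UB replicate 2 lay apart from the other 3 UB arrays for 2 genes. Its Cdh2 signal was 964.2, where the others ran from 484.5 to 541.6, and its Alcam signal was 1041.4, where the others ran from 579.1 to 625.1. In each case the gap to the nearest array was over 0.829 of the group's whole log2 range, the 95% critical value of Dixon's test for 4 arrays. Of 30 groups of 4 or 5 arrays examined 2 were flagged, and chance flags about 1 in 20. UB replicate 2 gave the highest UB signal for 9 of the 10 genes, the exception being Chl1. Among the null captures, replicate 1 gave the highest signal for 8 of the 10 genes and replicate 5 the lowest for 5. The causes of these array patterns were not tested.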

How the results depend on the processing

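In UB against hand-dissected MM, 9 genes were called, and 9 to 10 under the 17 alternatives; 9 of the 10 genes kept direction and side of the threshold throughout, the exception being Cdh4. In null against wild-type captures, 1 gene was called, and 0 without the filter, after quantile or cyclic loess normalization and with the mean of a gene's probe sets, 2 with array weights, and 0 to 1 when an array was left out. Ncam1 was at a limma adjusted p of 0.0551, 0.0705, 0.0909 and 0.754 under the first 4 of these. With the replicate number as a block, 0 genes were called (Ncam1 0.93, limma adjusted p = 0.0774). Correlations of same-numbered deviations were -0.047 to 0.074, within the -0.167 to 0.23 of differently numbered ones. No label says whether same-numbered samples share more than the number, and these few correlations cannot decide it. In captured against hand-dissected wild-type MM, 4 genes were called, 2 in a joint fit of all 16 arrays and 2 with the mean of a gene's probe sets, and 3 to 6 when an array was left out. With that mean Ncam1 turned to 0.24 (adjusted p = 0.414); after quantile normalization Ctnnb1 turned to -0.065 (adjusted p = 0.422). The causes were not tested. Another scaling moved the median of all probe sets: median centring gave 0.16 against 0.02 in the first comparison, 0.15 against -0.15 in the second and -0.08 against 0.11 in the third. It also moved the split of higher and lower calls, to 4015 and 2204 (against 2952 and 2749), 136 and 71 (against 138 and 273) and 2435 and 3207 (against 3857 and 2009); cyclic loess gave 158 and 184 in the second, and 3167 and 2485 in the third, where quantile normalization gave 2924 and 2551. Over all probe sets the calls ran from 3580 (joint fit) to 10132 (array weights) against 5701 in the first comparison, from 53 (replicate block) to 1866 (without null replicate 1) against 411 in the second, and from 2811 to 8073 against 5866 in the third. The alternatives for genes of the pathway lists were added after seeing the data: 2 of 16, 2 of 2 and 7 of 13 named genes lost their call under at least 1 alternative. Signals near background limit the size of the differences of Cdh1, Cdh16, Chl1, Cdh6, Cdh9, Vcam1 and Esrp1.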
